A study of Mus musculus with 12 samples.

Results

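The genes described here are the mouse zinc finger genes named Zfp plus a number that were measurably transcribed in 4T1 cells, a mammary carcinoma line derived from a BALB/c mouse. They were chosen by their read counts: a protein-coding gene with such a name entered when its transcripts summed to at least 20 estimated reads in every one of 12 RNA-seq libraries. This left 291 of 364 listed Zfp genes, out of 35521 listed genes in all. The label held to the protein sequences: the letters of at least 1 C2H2 finger were found in 283 members, and 8 (Zfp36, Zfp185, Zfp330, Zfp365, Zfp503, Zfp703, Zfp781 and Zfp839) had none. The 3 groups of 4 libraries were compared. Tu-Gr1+CD11b+-primed 4T1 cells (4T1_MDSC_T) had shared a Transwell with 0.4 µm pores for 48 hours with myeloid cells sorted on Gr1 from 4T1 tumors of BALB/c mice at day 21. Spl-Gr1+CD11b+-primed 4T1 cells (4T1_MDSC_S) had shared it for the same time with Gr1+ cells from the spleens of such mice, and parental 4T1 cells (4T1) were the controls. The labels do not say whether parental cells sat in an empty Transwell, how many mice gave the Gr1+ cells or whether replicates were separate cultures, so p-values measure the spread between these libraries, which may be technical. All libraries come from 1 cell line, and in bulk RNA a change in every cell cannot be told apart from a change in the share of cells in one state.

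A C2H2 zinc finger folds around a zinc ion held by a pair of cysteines and a pair of histidines, and strings of such fingers read DNA sequence. In mammals the largest class carries a KRAB domain near the start of the protein, which recruits the co-repressor Trim28 and, through it, Setdb1, heterochromatin protein and histone deacetylases to transposon copies and imprinted loci. These genes lie in clusters that grew by duplication, evolve fast and are usually transcribed at low levels. Other Zfp names cover unrelated proteins: activators, splicing and RNA-decay factors, ubiquitin ligases and chromatin adaptors.

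One finger each is shown of the 5 members with the smallest p-values among those that rose with no overlap of libraries in the first comparison below, because the finger is the feature shared by nearly all members. Capitals mark the codons of the pair of cysteines and the pair of histidines of 1 finger each, read 5′ to 3′ on the coding strand from the GENCODE M21 transcripts (GRCm38), and the rest is in lower case.
Zfp57: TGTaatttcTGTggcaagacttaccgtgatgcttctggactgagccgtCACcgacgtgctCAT
Zfp101: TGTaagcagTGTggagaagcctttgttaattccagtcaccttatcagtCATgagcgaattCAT
Zfp760: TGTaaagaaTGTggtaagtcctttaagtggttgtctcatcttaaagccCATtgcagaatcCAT
Zfp810: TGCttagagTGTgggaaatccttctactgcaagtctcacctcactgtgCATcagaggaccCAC
Zfp692: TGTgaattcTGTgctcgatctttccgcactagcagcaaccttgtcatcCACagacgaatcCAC
These fingers lie in coding exons at chr17:37009679-37009741 on the plus strand (Zfp57), chr17:33382058-33382120 on the minus strand (Zfp101), chr17:21722473-21722535 on the plus strand (Zfp760), chr9:22278999-22279061 on the minus strand (Zfp810) and chr11:58313983-58314045 on the plus strand (Zfp692). All 5 were picked by the same fixed spacing, so their spacing is no result, and the letters between the zinc-holding codons differ. With a looser spacing allowed, the median member held 10 fingers in its longest coding translation and Zfp142 the most, at 36. KRAB-type letters near the start of a coding translation were found in 166 members and not in 125, with medians of 12 and 7 fingers. These letters are a description of sequence, not a test of a KRAB domain. Members lay on 20 chromosomes, with 76 on chromosome 7, 37 on chromosome 17 and 25 on chromosome 13, and 163 lay within 100000 bases of another Zfp gene. In the median member 1.63% of the 31-base words of its transcripts recurred in another gene. This share passed 20% in 45 members, whose reads may be split between copies.

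The libraries held 24566183 to 31637755 estimated reads, and the members took 0.622% to 0.854% of them. Libraries were scaled by TMM, which assumes that most genes do not change, with factors of 0.88 to 0.951 in parental and 1.01 to 1.05 in primed libraries. Without these factors the median of all genes tested shifted by 0.21 on the log2 scale in Tu-Gr1+CD11b+-primed against parental cells, and by 0.49 in TPM, the length-corrected scale, against 0.02 with them. Changes below are relative to the TMM scale. The 6 epithelial markers were present in every library, and 4 of them were lower in Tu-Gr1+CD11b+-primed than in parental cells. Their sums on the TMM scale were 1879 to 2306 CPM in Tu-Gr1+CD11b+-primed, 2368 to 2553 CPM in Spl-Gr1+CD11b+-primed and 2648 to 3954 CPM in parental cells. These ranges did not overlap. Of 21 myeloid markers, 8 were at 0 in every library and 3 passed the filter on low counts. Their sum ran from 6.89 to 11.9 CPM in Tu-Gr1+CD11b+-primed, 5.45 to 7.40 in Spl-Gr1+CD11b+-primed and 5.86 to 7.18 in parental cells, and 2 of the 3 tested were higher in Tu-Gr1+CD11b+-primed than in parental cells. Their part in the results was not tested.

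The members were low genes. Their median level over the 12 libraries was 6.86 TPM, against 20.9 TPM for the 10877 protein-coding genes at the same floor. On this scale, which corrects for length, the highest were Zfp706 (mean 304 TPM), Zfp934 (183 TPM), Zfp207 (148 TPM) and Zfp738 (119 TPM), and the lowest were Zfp712 (0.473 TPM) and Zfp953 (0.434 TPM). Zfp207, also called BuGZ, serves chromosome alignment at kinetochores. Its TPM ran from 160.4 to 169 in both primed groups together and from 100.3 to 123 in parental cells. In TPM the median of all genes tested also shifted, by 0.49 with tumor-derived and 0.42 with spleen-derived cells on the log2 scale. The smaller change of Zfp207 on the TMM scale is given below. In Zfp934, 40.3% of words recurred in other genes, and 90.8% ± 1.32 to 94.8% ± 0.60 (SD, n = 4) of its reads per group were assigned to a transcript annotated for nonsense-mediated decay.

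The first comparison asked how contact-free exposure to tumor-derived Gr1+CD11b+ cells was accompanied by changes in these genes. More members were higher than lower in Tu-Gr1+CD11b+-primed cells: by edgeR's quasi-likelihood test over all 12 libraries, 143 of 291 (49.1%) rose and 32 (10.997%) fell at an adjusted p under 0.05, and 116 did not pass. Over all 12555 genes tested, 31.2% rose and 28.0% fell. At the members' own floor, 30.1% of 10877 protein-coding genes rose and 31.03% fell. The median member changed by 0.25 on the log2 scale against 0.02 for all genes tested. Changes were mostly small, with 72 of the members that rose and 8 of those that fell passing 0.5 in size, and 12 rises passing 1. In 158 members the 4 Tu-Gr1+CD11b+-primed libraries did not overlap the 4 parental libraries, and 153 of these passed the test. This was 54.3% of the members against 55.5% of all genes tested, so the number without overlap is no result about the members. By direction, all 4 primed libraries lay above all parental ones in 132 members (45.4%, against 28.6% of all genes tested) and below them in 26 (8.93%, against 26.9%).

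Zfp57 binds a methylated motif at imprinted loci and keeps their methylation. Its level was 15.0, 14.9, 15.9 and 15.1 CPM in Tu-Gr1+CD11b+-primed, 13.1, 15.5, 15.8 and 13.7 CPM in Spl-Gr1+CD11b+-primed and 6.13, 7.04, 6.25 and 6.91 CPM in parental cells. Every primed library stood above every parental one, by 1.21 ± 0.08 (log2 fold change ± SE) in Tu-Gr1+CD11b+-primed cells (adjusted p = 1.2e-07). Zfp101, a gene with KRAB-type letters on the same chromosome, was at 46.1, 48.9, 48.7 and 43.4 CPM, then 40.9, 44.9, 41.0 and 47.7 CPM, and 15.2, 19.2, 14.0 and 11.99 CPM in the same order of groups. Its groups of primed and parental libraries did not overlap, and its rise was 1.63 ± 0.11 (adjusted p = 1.3e-07). Zfp760 was at 20.1, 21.5, 21.7 and 22.7 CPM in Tu-Gr1+CD11b+-primed, 22.6, 23.5, 20.1 and 24.5 CPM in Spl-Gr1+CD11b+-primed and 9.57, 11.2, 10.2 and 8.43 CPM in parental cells. All 8 primed values lay above 20, and the rise with tumor-derived cells was 1.13 ± 0.09 (adjusted p = 3.6e-07).

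Zfp810 formed 3 separate levels, with 19.6, 17.2, 19.4 and 16.7 CPM in Tu-Gr1+CD11b+-primed, 14.3, 14.8, 12.6 and 14.5 CPM in Spl-Gr1+CD11b+-primed and 8.09, 9.31, 8.26 and 7.95 CPM in parental cells. It rose by 1.12 ± 0.08 against parental cells (adjusted p = 2.3e-07). Zfp692 had the largest rise of any member that passed, 2.11 ± 0.17 (adjusted p = 4.6e-07), from 2.56, 2.72, 1.68 and 1.88 CPM in parental cells to 8.27, 10.6, 10.0 and 9.40 CPM. Its lowest library held 40 reads. Zfp410, a factor with Chd4 as its chief target gene, lay at 50.9, 48.0, 50.9 and 51.6 CPM in Tu-Gr1+CD11b+-primed, 50.5, 51.7, 50.9 and 51.5 CPM in Spl-Gr1+CD11b+-primed and 32.1, 34.5, 33.1 and 28.7 CPM in parental cells. Its primed libraries hardly varied among themselves, and the rise was 0.65 ± 0.06 (adjusted p = 9.1e-07).

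The 4 members with the smallest p-values among those that fell with no overlap of libraries carried no KRAB-type letters. Zfp706, the highest member in TPM but not in CPM, is a protein of 76 residues with a single finger. It fell by 0.56 ± 0.05 (adjusted p = 2.6e-06), from 302, 293, 318 and 326 CPM in parental cells. Its levels in Tu-Gr1+CD11b+-primed cells were 210, 216, 210 and 207 CPM. Zfp703 and Zfp503 are paired co-repressors of the NET family, and Zfp703 is a known oncogene of luminal breast cancer. Zfp703 fell by 0.58 ± 0.07 (adjusted p = 1.7e-05), from 51.0, 47.4, 54.8 and 59.9 CPM to 37.3, 34.3, 37.8 and 32.9 CPM. Zfp503 was at 63.4, 60.1, 63.9 and 74.1 CPM in parental and 47.4, 47.1, 47.4 and 41.8 CPM in Tu-Gr1+CD11b+-primed cells, a log2 change of -0.51 ± 0.07 (adjusted p = 3.2e-05). In Zfp628 parental values of 19.2, 18.2, 21.8 and 27.0 CPM stood above 12.6, 12.5, 11.95 and 13.2 CPM, a change of -0.78 ± 0.10 (adjusted p = 2.3e-05). In unscaled TPM, where all genes shifted by 0.49, these 4 genes stood at log2 ratios of group means between -0.30 and 0.08, with Zfp706 on the positive side. Relative to that shift they remained lower.

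**Figure D1:**
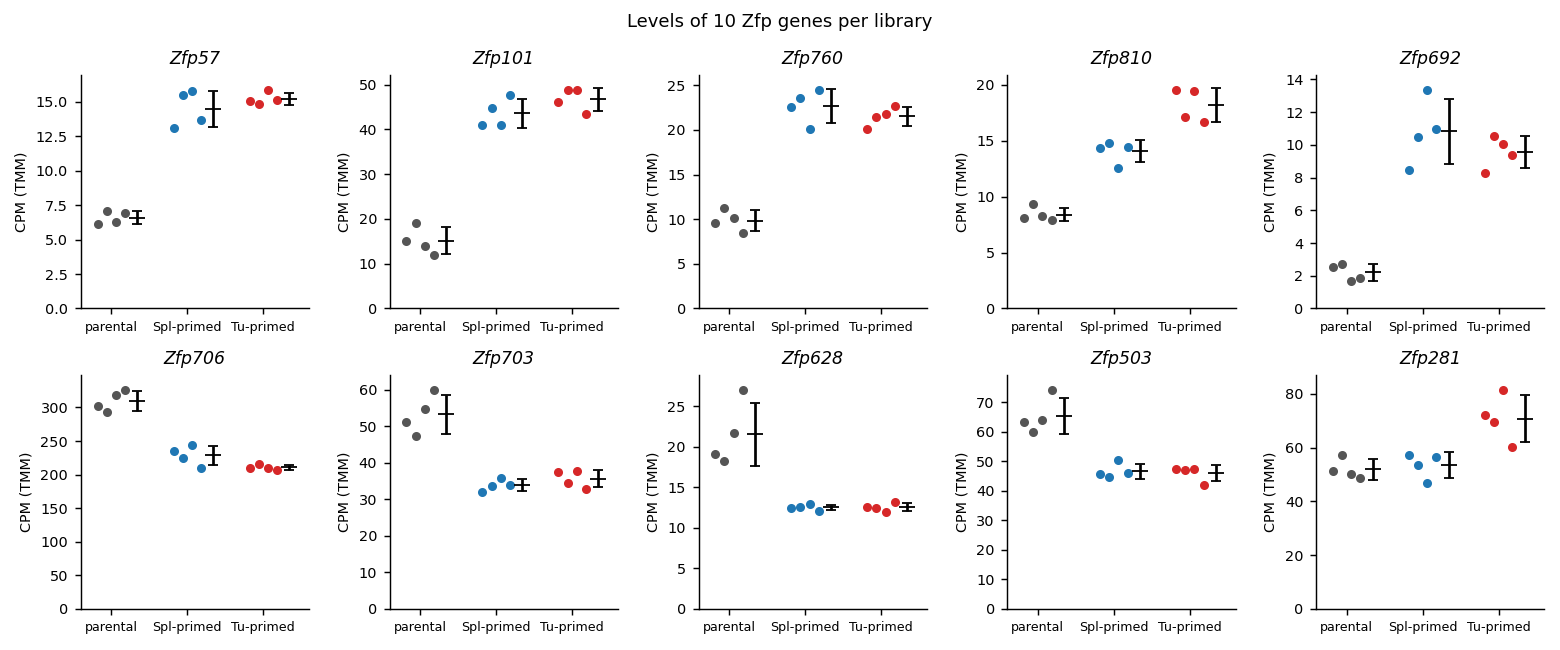
Level of 10 Zfp genes (vertical axes, CPM on the TMM scale) in parental, Spl-Gr1+CD11b+-primed (Spl-primed) and Tu-Gr1+CD11b+-primed (Tu-primed) 4T1 libraries. Points are libraries and the bars are the mean ± SD (n = 4); Zfp57, Zfp101, Zfp760, Zfp810 and Zfp692 sit higher and Zfp706, Zfp703, Zfp628 and Zfp503 lower in every primed library, and Zfp281 is highest in the Tu-primed group.

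The comparison of Spl-Gr1+CD11b+-primed with parental cells shares its parental libraries with the one above, so the values are given side by side and no overlap between them is drawn. Here 122 members (41.9%) rose and 20 (6.87%) fell, against 25.7% and 22.5% of all 12555 genes tested, and the median member changed by 0.21 on the log2 scale. At the members' floor, 25.1% of protein-coding genes rose and 25.2% fell. Rises passed 0.5 in 49 members and 1 in 10. In 118 members (40.5%, against 39.7% of all genes tested) the libraries of these groups did not overlap, 102 of them above and 16 below the parental ones. Zfp57 changed by 1.14 ± 0.08 (adjusted p = 3.5e-07), Zfp101 by 1.53 ± 0.11 (adjusted p = 4e-07), Zfp760 by 1.20 ± 0.09 (adjusted p = 4.2e-07) and Zfp692 by 2.28 ± 0.17 (adjusted p = 4.9e-07). Zfp692 was at 8.47, 10.5, 13.4 and 10.99 CPM in these libraries, above all parental values. Zfp703, Zfp706, Zfp628 and Zfp503 had the smallest p-values among those that fell with no overlap of libraries. Zfp703 was at 32.0, 33.7, 35.8 and 33.8 CPM (-0.65 ± 0.07, adjusted p = 1.4e-05) and Zfp706 at 235, 225, 244 and 210 CPM (-0.44 ± 0.05, adjusted p = 3.4e-05). Zfp628 was at 12.5, 12.5, 12.9 and 12.1 CPM (-0.78 ± 0.10, adjusted p = 4.6e-05) and Zfp503 at 45.7, 44.8, 50.4 and 45.9 CPM (-0.49 ± 0.07, adjusted p = 9.5e-05).

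**Figure D2:**
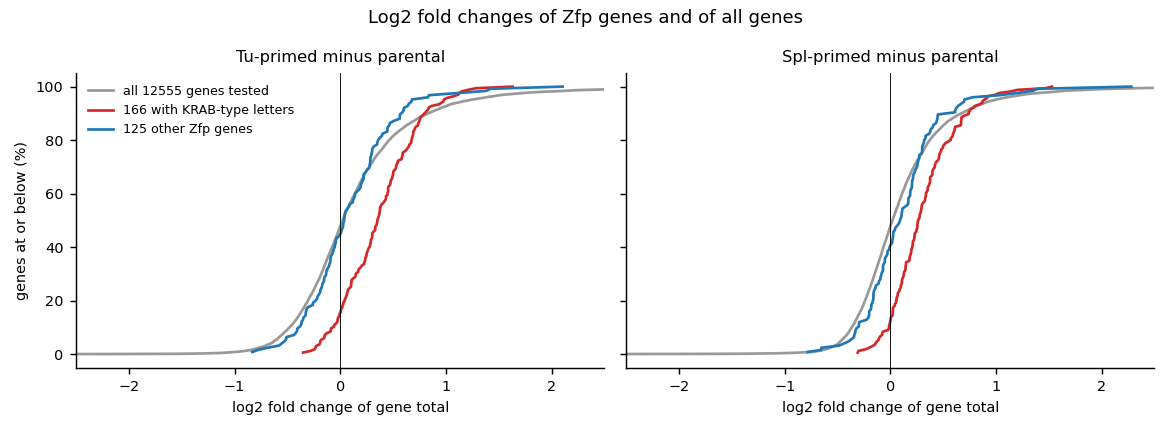
Cumulative share of genes (vertical axis, %) against the log2 fold change of gene totals (horizontal axis, shown from -2.5 to 2.5) for Tu-primed and Spl-primed minus parental cells. The curve of the 166 members with KRAB-type letters lies to the right of that of all 12555 genes tested (medians 0.35 and 0.27 against 0.02), and that of the 125 other members has medians of 0.04 and 0.09.

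Few members differed between the primed groups. With tumor-derived against spleen-derived cells, 4 members (1.37%) were higher and 5 (1.72%) lower, against 4.66% and 2.97% of all genes tested, so the share of members called was below the background in both directions. The libraries of the primed groups did not overlap in 29 members (9.97%), against 17% of all genes tested. Of the 3 myeloid markers tested, 2 were also higher with tumor-derived than with spleen-derived cells, and their part in these differences was not tested. Zfp281, a regulator of pluripotency and of epithelial-mesenchymal state, was at 72.1, 69.4, 81.4 and 60.1 CPM in Tu-Gr1+CD11b+-primed cells. It was at 57.1, 53.5, 46.7 and 56.4 CPM in Spl-Gr1+CD11b+-primed and 51.4, 57.4, 50.1 and 48.6 CPM in parental cells. The Tu-Gr1+CD11b+-primed libraries lay above all others, and the difference from Spl-Gr1+CD11b+-primed cells was 0.40 ± 0.09 (adjusted p = 0.012). The 2 primed groups of Zfp810, given above, differed by 0.37 ± 0.08 (adjusted p = 0.0087), and with transcript length offsets by 0.41 (adjusted p = 0.055). Zfp326, a subunit of the DBIRD complex that links RNA polymerase II to splicing, was at 77.004, 73.7, 80.7 and 66.8 CPM against 61.1, 60.1, 60.4 and 65.3 CPM and 49.98, 50.4, 42.3 and 43.6 CPM in parental cells. Its 3 groups did not overlap, and the difference between primed groups of 0.27 ± 0.07 (adjusted p = 0.028) missed the threshold in 7 of the alternatives tried, at adjusted p-values from 0.061 to 0.20. Zfp273 (0.62 ± 0.17, adjusted p = 0.036) was named after its values were seen.

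Among those lower with tumor-derived cells, Zfp672 was at 8.66, 8.19, 7.86 and 8.88 CPM against 11.7, 10.7, 12.5 and 11.7 CPM with spleen-derived cells and 10.9, 10.3, 11.2 and 9.83 CPM in parental cells. It stood below both other groups in every library, with a difference between primed groups of -0.47 ± 0.07 (adjusted p = 0.0012). The gene lies at chr11:58315114-58330339 on the minus strand, beside Zfp692 at chr11:58307069-58314627 on the plus strand. Zfp651 was at 22.6, 20.3, 23.0 and 25.5 CPM against 27.0, 29.9, 29.6 and 28.8 CPM, and at 24.4, 22.5, 21.2 and 23.4 CPM in parental cells, so the spleen group was the one that stood apart (-0.33 ± 0.07, adjusted p = 0.0098). Zfp598, a ubiquitin ligase that senses collided ribosomes, showed the same arrangement at 75.9, 73.0, 74.7 and 81.2 CPM, 82.8, 92.8, 98.1 and 87.6 CPM and 75.7, 72.4, 73.9 and 76.9 CPM (-0.25 ± 0.06, adjusted p = 0.018, above the threshold in 6 alternatives at 0.050 to 0.070). With transcript length offsets the differences of Zfp672 (-0.27, adjusted p = 0.28) and Zfp651 (-0.29, adjusted p = 0.11) no longer passed. Zfp961 (-0.23 ± 0.06, adjusted p = 0.019) and Zfp934 (-0.33 ± 0.08, adjusted p = 0.028) were outside the rule for naming in this comparison.

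Members with and without KRAB-type letters had different counts. Of the 166 with them, 98 (59.0%) rose and 5 (3.01%) fell in Tu-Gr1+CD11b+-primed against parental cells, with a median of 0.35, and of the 125 without, 45 (36.0%) rose and 27 (21.6%) fell, with a median of 0.04. With spleen-derived cells, 82 (49.4%) rose and 4 fell in the first group (median 0.27), and 40 (32.0%) rose and 16 (12.8%) fell in the second (median 0.09). Over all 12555 genes tested, 31.2% rose and 28% fell with tumor-derived cells, and 25.7% rose and 22.5% fell with spleen-derived cells. The difference between members with and without the letters was not tested. The summed level of the genes with the letters was 2773, 2777, 2943 and 2820 CPM in Tu-Gr1+CD11b+-primed, 2971, 2834, 2567 and 2884 CPM in Spl-Gr1+CD11b+-primed and 2332, 2562, 2298 and 2198 CPM in parental libraries. Each primed library stood above each parental one, though the lowest Spl-Gr1+CD11b+-primed value (2567) and the highest parental value (2562) nearly met. The sum over the other members was 4929 to 5197 CPM, 4649 to 5258 CPM and 4873 to 5120 CPM in the same order, and these ranges overlapped. The sum over all members was 7892 ± 181 CPM in Tu-Gr1+CD11b+-primed, 7879 ± 452 CPM in Spl-Gr1+CD11b+-primed and 7312 ± 266 CPM in parental cells (SD, n = 4).

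**Figure D3:**
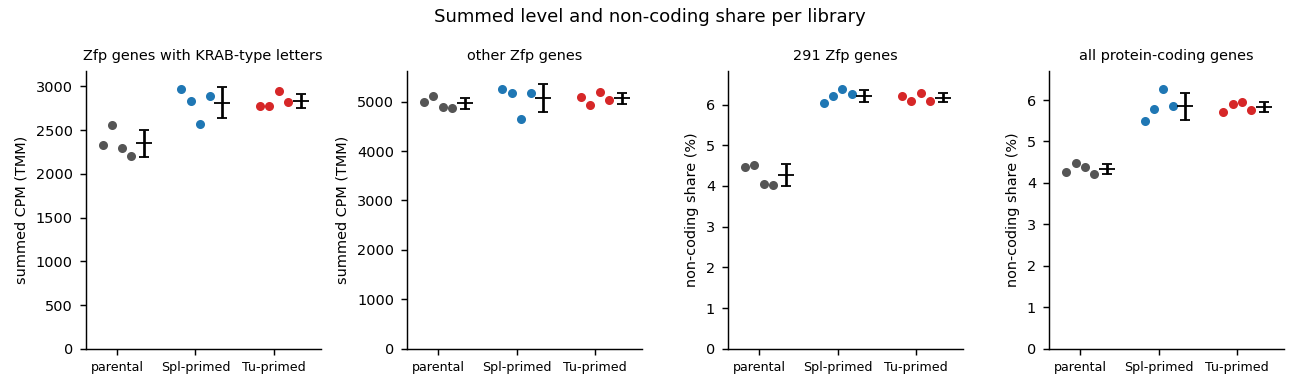
Summed CPM (left pair of panels, TMM scale) of Zfp genes with and without KRAB-type letters, and non-coding share (right pair) for the 291 Zfp genes and for all protein-coding genes. The share is the percent of reads on non-coding transcripts, with reads on decay targets left out. Points are libraries and bars are mean ± SD (n = 4); sums with the letters rise from 2198-2562 CPM in parental to 2567-2971 CPM in primed libraries, and both shares are higher in all primed libraries.

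Counts by place in the genome are given beside those of the other protein-coding genes of the same chromosome at the members' floor, and differences between chromosomes or lists were not tested. On chromosome 17, 24 of 37 members (64.9%) rose with tumor-derived cells and 22 (59.5%) with spleen-derived cells, against 32.7% and 29.0% of 513 other genes. By the edgeR test 0 fell in either comparison (0 also at an unadjusted p under 0.05 and by DESeq2), against 35.5% and 27.1% of the other genes. On chromosome 13, 15 of 25 (60.0%) rose and 1 fell with tumor-derived cells, against 32.0% and 24.7% of 381 other genes. With spleen-derived cells 8 of these 25 (32.0%) rose, nearer to the 26.2% of the other genes. On chromosome 7, which holds the most members, 29 of 76 (38.2%) rose and 14 (18.4%) fell with tumor-derived cells, against 22.7% and 39.0% of 746 other genes. With spleen-derived cells 25 (32.9%) rose and 9 (11.8%) fell, against 20.1% and 30.4%. Members within 100000 bases of another Zfp gene rose with tumor-derived cells in 76 of 163 (46.6%) and the others in 67 of 128 (52.3%). Of the 45 members with over 20% of shared words, 31 rose and 2 fell, and of the 246 others, 112 (45.5%) rose and 30 (12.2%) fell. Of the 51 members with more than 15 fingers, 27 (52.9%) rose and 6 (11.8%) fell. Of the 50 with 1 to 5 fingers, 22 (44%) rose and 8 (16%) fell. The counts of these last lists are all with tumor-derived cells, where 31.2% of all genes tested rose and 28% fell.

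Genes of the machinery that KRAB zinc finger proteins depend on moved in both directions. Of 25 co-repressor and heterochromatin genes, 8 rose and 4 fell in Tu-Gr1+CD11b+-primed against parental cells, 8 rose and 3 fell in Spl-Gr1+CD11b+-primed against parental cells, and none passed the edgeR test between primed groups (1 higher and 2 lower at an unadjusted p under 0.05, and 0 by DESeq2). The rises were 32.0% of the list in both comparisons with parental cells, against 31.2% and 25.7% of all genes tested, and the falls 16% and 12%, against 28.0% and 22.5%, so the share that rose with tumor-derived cells was that of the background. Trim28, the co-repressor itself, was at 462 ± 15.1 CPM in Tu-Gr1+CD11b+-primed, 511 ± 21.7 CPM in Spl-Gr1+CD11b+-primed and 557 ± 29.1 CPM in parental cells (SD, n = 4). It fell by 0.27 ± 0.05 with tumor-derived cells (adjusted p = 0.00056), a call lost with transcript length offsets (-0.09, adjusted p = 0.20), and was at -0.13 ± 0.05 with spleen-derived cells (adjusted p = 0.062). Setdb1, which trimethylates histone H3 at lysine 9, rose by 0.34 ± 0.06 (adjusted p = 0.00026) and 0.36 ± 0.06 (adjusted p = 0.0003). Dnmt3b, a de novo DNA methyltransferase, rose from 1.47 ± 0.39 CPM to 3.31 ± 0.48 CPM and 3.46 ± 0.33 CPM (SD, n = 4), changes of 1.16 ± 0.18 and 1.23 ± 0.18. Chd4, the helicase of the NuRD complex, fell by 0.29 ± 0.07 (adjusted p = 0.0026) and 0.35 ± 0.07 (adjusted p = 0.00097).

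Of 24 Zfp genes listed for a well-known role, 23 were members. With tumor-derived cells 10 rose (43.5%, against 31.2% of all genes tested) and 4 fell (17.4%, against 28.0%). With spleen-derived cells 9 rose (39.1%, against 25.7%) and 3 fell (13.04%, against 22.5%). Where a gene of this list has a single change here, it is the one with tumor-derived against parental cells. Such a value does not show that spleen-derived cells lacked the change. Among RNA regulators, Zfp36 (tristetraprolin, which brings unstable mRNAs to decay) rose by 0.30 ± 0.08 with tumor-derived cells (adjusted p = 0.0044), and Zfp346, which binds double-stranded RNA, rose by 0.56 ± 0.07 (adjusted p = 2e-05) and by 0.70 ± 0.07 with spleen-derived cells (adjusted p = 6.8e-06). Zfp622, needed for maturation of the large ribosomal subunit, fell by 0.35 ± 0.08 (adjusted p = 0.0019) and 0.33 ± 0.08 (adjusted p = 0.0039). Among regulators of transcription, Zfp217, an oncogene amplified in breast cancer, rose by 0.51 ± 0.10 (adjusted p = 0.0009) and 0.30 ± 0.10 (adjusted p = 0.03). The silencers of retroviral DNA differed: Zfp638, which recruits the HUSH complex, rose by 0.37 ± 0.10 (adjusted p = 0.0043), and Zfp809 stood at -0.15 ± 0.08 (adjusted p = 0.096, and -0.21 with adjusted p = 0.022 without replicate 4 of the Tu-Gr1+CD11b+-primed group). Zfp568, a KRAB repressor of a placental Igf2 transcript, rose by 0.35 ± 0.11 (adjusted p = 0.015). With transcript length offsets Zfp638 was at 0.35 (adjusted p = 0.13) and Zfp568 at 0.41 (adjusted p = 0.11), changes of like size that no longer passed. Zfp91 (-0.15 ± 0.06), Zfp830 (-0.18 ± 0.07) and Zfp207 (0.13 ± 0.04) passed with adjusted p-values of 0.041, 0.046 and 0.019, and each lost the call under several alternatives. The activator Zfp143 (-0.02 ± 0.05), the SUMO ligase Zfp451 (0.01 ± 0.09), and Zfp106, Zfp148, Zfp592, Zfp609 and Zfp687 did not pass. Zfp592, at -0.13 ± 0.07 (adjusted p = 0.098), passed under 3 alternatives: at -0.54 with length offsets (adjusted p = 0.0067), at -0.14 with 8 libraries fitted (adjusted p = 0.043) and at -0.13 without replicate 3 of the Spl-Gr1+CD11b+-primed group (adjusted p = 0.027).

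Counts on coding transcripts alone gave similar numbers. With tumor-derived cells 137 members rose and 25 fell, against 28.2% and 26.0% of 11826 genes, and with spleen-derived cells 116 rose and 15 fell, against 22.7% and 19.6%. Between primed groups 3 were higher and 3 lower, against 4.11% and 2.54%. Of the 143 members whose total rose with tumor-derived cells, 130 also rose on coding transcripts alone. Of the 32 whose total fell, 22 also fell and 9 did not pass. The remaining one, Zfp934, fell in total by 0.28 ± 0.08 (adjusted p = 0.0099) and rose by 0.55 ± 0.09 on its coding transcripts (adjusted p = 0.00019). The rise in totals was not limited to genes with non-coding transcripts: of the 112 members with none annotated, 53 (47.3%) rose and 14 (12.5%) fell, and of the 179 with at least 1, 90 (50.3%) rose and 18 (10.1%) fell.

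A second readout was the non-coding share, for which reads on decay targets were left out of the whole. It is the percent of a gene's remaining reads assigned to transcripts annotated as retained intron or processed transcript. Such transcripts overlap the coding ones, so the split between them is Salmon's estimate. Pooled over members, the share was 6.21%, 6.09%, 6.29% and 6.08% in Tu-Gr1+CD11b+-primed, 6.03%, 6.21%, 6.39% and 6.25% in Spl-Gr1+CD11b+-primed and 4.46%, 4.52%, 4.04% and 4.03% in parental libraries. Primed and parental libraries did not overlap. All protein-coding genes showed a like difference, at 5.48% to 6.27% in primed and 4.23% to 4.48% in parental libraries. Retained introns made up 3.35% to 3.98% in primed and 2.11% to 2.44% in parental libraries, and processed transcripts 2.27% to 2.68% and 1.68% to 2.24%. Summed reads on non-coding transcripts were 468 ± 18.8, 468 ± 20.7 and 299.6 ± 28.0 CPM in the order of groups above, a ratio of 1.56 to parental cells in both, while those on coding transcripts stood at ratios of 1.06 and 1.05.

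With at least 10 reads on average in each class, 84 members could be tested. In Tu-Gr1+CD11b+-primed against parental cells the share rose in 33 (39.3%) and fell in 1, against 47.1% and 0.747% of 5626 genes. The median change in the log2 ratio of non-coding to coding counts was 0.63, against 1.09 for all genes tested. In Spl-Gr1+CD11b+-primed against parental cells the share rose in 27 (32.1%) and fell in 1, against 43.9% and 0.764%. The median changes of the ratio were 0.57 and 1.02. For rises the members' shares of calls were below those of all genes, and the single falls (1.19% of members each) were too few to compare, so these counts are no result about the members. Between the primed groups none passed in either direction by edgeR, against 0.0% of all genes, with 1 higher and 2 lower at an unadjusted p under 0.05. Tests of the log ratio and of the arcsine share with limma also called 0. Of the 33 members whose share rose with tumor-derived cells, 22 also rose in total, 3 fell in total and 8 did not pass. On coding transcripts alone, 17 of the 33 rose, 5 fell and 11 did not pass.

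The junctions below show where the annotated transcripts differ, not reads seen to cross them: each is the edge between an exon (lower case) and the intron (capitals) that the non-coding transcript keeps and the coding transcript removes, 30 bases on either side, read 5′ to 3′ on the gene's strand from GRCm38.
Zfp523-205: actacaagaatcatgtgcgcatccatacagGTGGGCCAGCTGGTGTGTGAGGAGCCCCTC
Zfp598-203: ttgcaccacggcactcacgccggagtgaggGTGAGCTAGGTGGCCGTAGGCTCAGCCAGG
Zfp326-205: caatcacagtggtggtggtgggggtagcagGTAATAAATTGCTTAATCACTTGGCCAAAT
Zfp414-206: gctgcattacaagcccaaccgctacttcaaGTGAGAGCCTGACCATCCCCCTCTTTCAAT
Zfp330-206: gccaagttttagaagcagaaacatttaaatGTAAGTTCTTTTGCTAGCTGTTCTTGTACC
They lie at chr17:28201411-28201470 (plus), chr17:24678023-24678082 (plus), chr5:105886399-105886458 (plus), chr17:33630652-33630711 (plus) and chr8:82766639-82766698 (minus), and the kept introns are 674, 543, 2005, 447 and 610 bases long. Each intron lies between coding exons and opens with the GT of a splice donor. These transcripts took 88.1%, all, 83.3%, 64.03% and 41.8% of their genes' non-coding reads over all libraries, and in Zfp330 a processed transcript took 34.2%.

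Zfp523 is a close relative of the activator Zfp143. Its non-coding share was 40.7%, 39.4%, 34.9% and 29.4% in Tu-Gr1+CD11b+-primed, 27.7%, 33.7%, 41.0% and 34.1% in Spl-Gr1+CD11b+-primed and 5.96%, 4.07%, 2.68% and 4.79% in parental libraries. No primed library came near a parental one, and the log2 ratio of non-coding to coding counts rose by 3.61 ± 0.30 (adjusted p = 2.9e-05) and 3.49 ± 0.30 (adjusted p = 3.8e-05). Transcript Zfp523-205 carried 88.1% of these reads, with 164 to 179, 109 to 215 and 0 to 19 reads per library. The gene's total rose by 0.45 ± 0.09 in both comparisons while its coding counts were at -0.07 ± 0.12 and -0.03 ± 0.12 and did not pass.

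Zfp598 has 1 non-coding transcript, which took 431 to 502 reads in Tu-Gr1+CD11b+-primed, 475 to 538 in Spl-Gr1+CD11b+-primed and 17 to 94 in parental libraries. Its share was 20.6%, 25.5%, 20.2% and 21.5%, then 18.01%, 21.0%, 19.7% and 21.1%, against 2.78%, 5.37%, 0.972% and 1.38% in parental cells. The total was at 0.03 ± 0.06 with tumor-derived cells (adjusted p = 0.71), whereas its coding counts fell by 0.25 ± 0.06 (adjusted p = 0.0046) and the log2 ratio rose by 3.63 ± 0.44 (adjusted p = 9.7e-05). With spleen-derived cells the total rose by 0.27 ± 0.06 (adjusted p = 0.0017) and the ratio by 3.46 ± 0.44 (adjusted p = 0.00016), and coding counts were at 0.03 ± 0.06. The total alone did not show the fall of its coding counts with tumor-derived cells.

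Zfp326 had shares of 24.8%, 29.0%, 26.8% and 20.9%, of 19.0%, 22.3%, 17.6% and 26.4%, and of 4.08%, 9.34%, 3.84% and 4.58% in parental libraries. Its ratio rose by 2.64 ± 0.32 (adjusted p = 9.3e-05) and 2.31 ± 0.32 (adjusted p = 0.00023), and here coding counts rose as well with tumor-derived cells, by 0.37 ± 0.07 (adjusted p = 0.00039). Zfp414 separated all 3 groups, at 28.8%, 30.6%, 28.0% and 28.7%, at 19.8%, 18.8%, 21.5% and 21.7% and at 13.8%, 10.5%, 12.1% and 12.1%. Its ratio rose by 1.57 ± 0.18 (adjusted p = 7.6e-05) and 0.90 ± 0.18 (adjusted p = 0.0019), the latter below the median change of all genes tested with spleen-derived cells. The difference between primed groups, 0.67 ± 0.18, did not pass after adjustment over all genes. Zfp330, a nucleolar protein, was at 8.82%, 7.28%, 8.94% and 6.07%, at 8.06%, 10.8%, 10.7% and 10.1% and at 0.779%, 2.93%, 2.11% and 1.17%, and its ratio rose by 2.36 ± 0.37 (adjusted p = 0.00037) and 2.75 ± 0.37 (adjusted p = 0.0002).

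**Figure D4:**
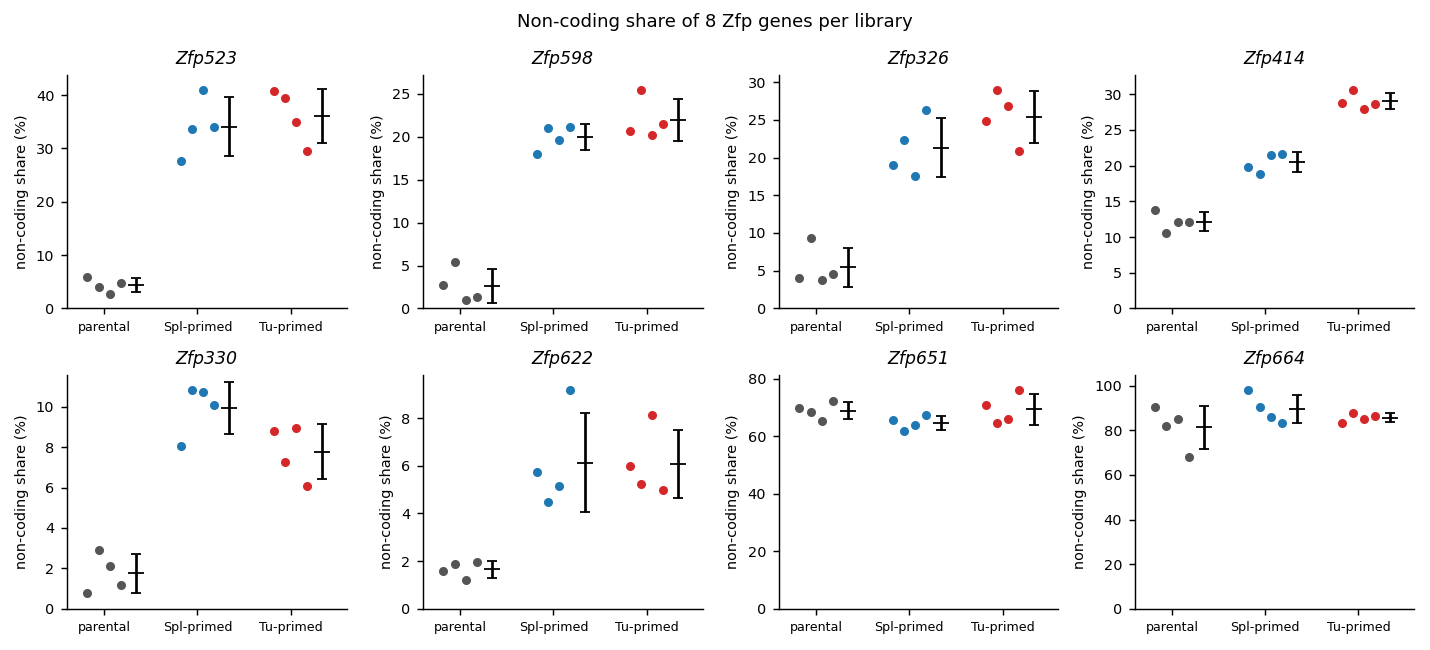
Non-coding share of 8 Zfp genes in parental, Spl-primed and Tu-primed libraries. Vertical axes give the % of a gene's reads, with those on decay targets left out, that fell on retained intron or processed transcripts. Points are libraries and bars are mean ± SD (n = 4); the first 6 genes sit higher in every primed library, while Zfp651 (61.8% to 76.1%) and Zfp664 (68.0% to 98.0%) are high throughout and overlap between groups.

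Among the members with a known role, Zfp622 had a higher share with lower totals: 1.66% ± 0.35 in parental, 6.09% ± 1.44 in Tu-Gr1+CD11b+-primed and 6.14% ± 2.09 in Spl-Gr1+CD11b+-primed cells (SD, n = 4), with ratios raised by 1.94 ± 0.30 and 1.92 ± 0.30. Zfp57, on the other hand, rose in total and in share, from 1.24% ± 1.14 to 3.77% ± 0.83 and 4.92% ± 0.83, with at most 25 non-coding reads in a library. The highest shares were found in genes whose share did not pass. With reads on decay targets left out of the whole, Zfp664 had 86.4% of its reads over all libraries on non-coding transcripts, Zfp865 72.4% and Zfp651 67.5%. None of them changed its share in a comparison with parental cells (adjusted p from 0.21 to 0.91). The falls were small in number of reads. Zfp748 held 11 to 17 non-coding reads in Tu-Gr1+CD11b+-primed against 16 to 23 in parental libraries (-0.82 ± 0.28, adjusted p = 0.032), a call lost when any of 5 libraries was left out (replicate 1, 2 or 3 of the Tu-Gr1+CD11b+-primed or replicate 2 or 3 of the parental group, adjusted p = 0.063 to 0.082). Zfp871 was at 0 in all 4 Spl-Gr1+CD11b+-primed libraries and at 42, 23, 25 and 0 reads in parental ones. Its call (adjusted p = 0.04) was lost when any of 7 libraries was left out (replicate 4 of the Tu-Gr1+CD11b+-primed, any of the Spl-Gr1+CD11b+-primed, or replicate 2 or 3 of the parental group, adjusted p = 0.053 to 0.079).

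**Figure D5:**
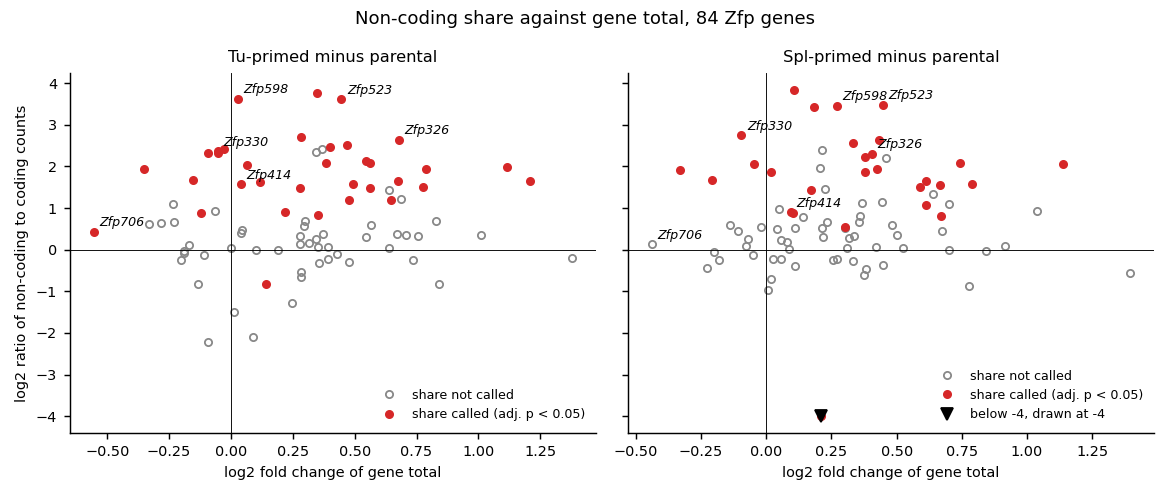
Change in the log2 ratio of non-coding to coding counts (vertical axis) against the log2 fold change of the gene total (horizontal axis). Shown are the 84 testable Zfp genes, for Tu-primed and Spl-primed minus parental cells. Filled points passed the share test (33 higher and 1 lower, 27 higher and 1 lower); Zfp598, Zfp330 and Zfp414 lie above 0 on the share axis with totals between -0.10 and 0.10, except Zfp598 in Spl-primed cells at 0.27, and a triangle marks Zfp871, drawn at the lower edge.

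The values at the floor are given with no test. Just inside it lay Zfp455 (20 to 44 reads over the libraries), Zfp712 (20 to 64) and Zfp493 (22 to 61), and just outside it Zfp661 (19 to 95), Zfp771 (19 to 62) and Zfp459 (18 to 46). Of the 73 Zfp genes below the floor, 22 were at 0 in every library and 17 reached 20 reads in at least 1 library. A gene low in 1 group falls below the floor, so members do not stand for all Zfp genes.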

How the data were processed

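RNA from 12 samples was sequenced from TruSeq stranded libraries. Per the labels and the submitters' processing notes, the authors trimmed reads with Trimmomatic 0.39 and deposited Salmon 1.4.0 estimated counts and TPM per transcript (mouse GRCm38/mm10). The annotation release and strand setting of the counting are not given in the sources used here. A deposited table of normalized values was not used. Transcripts were matched to GENCODE M21 (116021 of 117081; 0.326% to 0.419% of reads unmatched), summed per gene and rounded. Gene totals and coding-transcript counts were tested with edgeR 4.0.16 (filterByExpr, TMM, quasi-likelihood test, 12 libraries in 1 fit, Benjamini-Hochberg adjustment). The non-coding share was tested as the interaction of transcript class with group, with the library as a block, for genes averaging at least 10 reads in each class. Standard errors were taken from the fold change and its F statistic. Alternatives used DESeq2 1.42.0 and limma 3.58.1. Python 3.11.15 was used for tables and sequences. The scripts were tested on simulated data. KRAB-type letters were 1 of 2 amino-acid patterns in the first 200 residues of any coding translation. Same-group libraries differed by more than sampling noise (chi-square per degree of freedom at least 3.46). The members and lists were chosen with earlier results of these data known. Genes were named by rule: the smallest p per comparison and direction, the extremes of level and share, the role list, the floor and the co-repressors. Myeloid markers are given only as a sum and counts.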

Additional observations from a re-analysis of the deposited data

Results flagged for a closer look

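By Dixon's test within groups of 4, of 69 groups examined 2 held a library apart from the rest, and chance flags about 1 in 20. Zfp503 was at 41.8 CPM in replicate 4 of the Tu-Gr1+CD11b+-primed group, below 47.1 to 47.4 CPM in the other three. The Zfp326 non-coding share was 9.34% in parental replicate 2, above 3.84% to 4.58% in the others and still below every primed library.

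The 9 members that differed between the primed groups by the test of that difference were Zfp672 (-0.47), Zfp810 (0.37), Zfp651 (-0.33), Zfp281 (0.40), Zfp598 (-0.25), Zfp961 (-0.23), Zfp326 (0.27), Zfp934 (-0.33) and Zfp273 (0.62), as log2 fold changes of Tu-Gr1+CD11b+-primed against Spl-Gr1+CD11b+-primed cells.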

How the results depend on the processing

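Against parental cells, the counts of members that rose held within 1.5 times under all alternatives, leave-one-out fits included, for totals, coding counts and shares. At an adjusted p under 0.01 the falls in totals numbered 21 with tumor-derived and 12 with spleen-derived cells, and those in coding counts 9 with spleen-derived cells. The 4 higher and 5 lower totals between primed groups became 1 and 1 with length offsets, 2 higher under the replicate block, 9 lower with DESeq2, and 1 and 2 at 0.01. Leaving out 1 library gave 2 to 6 higher and 2 to 9 lower, with 9 without Tu-Gr1+CD11b+-primed replicate 4. The 3 higher coding counts became 6 with DESeq2 and 0 at 0.01, and ranged over 1 to 4 and, for the 3 lower, over 2 to 8. The single fall in share with tumor-derived cells became 2 by arcsine and under the replicate block, 4 with decay biotypes included, 0 at 30 reads and 0 at 0.01. The one with spleen-derived cells became 2 by log ratio, arcsine and 30 reads, 3 with decay biotypes, and 0 under the block and at 0.01. Both ranged over 0 to 1 with a library left out. With length offsets 1 co-repressor gene fell in place of 4 with tumor-derived cells. Leaving out a library gave 3 to 6 falls with spleen-derived cells (6 without Spl-Gr1+CD11b+-primed replicate 3) and 0 to 1 between primed groups. The cause was not tested.

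The pooled share of Tu-Gr1+CD11b+-primed, Spl-Gr1+CD11b+-primed and parental cells was 9.85%, 10.5% and 8.16% with decay biotypes, 13.8%, 13.8% and 11.3% in TPM, and 0.0197%, 0.0344% and 0% as the median member. The summed level was 4176, 4062 and 2915 TPM, 7115, 7056 and 6715 CPM on coding transcripts, and 8271 and 6736 CPM (tumor-primed and parental) without TMM. Signs turned, never past the threshold, for Zfp143 (0.0087 with length offsets, -0.050 to 0.011 with a library left out), Zfp451 (-0.00203 by DESeq2 and RLE, -0.11 with length offsets, -0.044 to 0.051) and Zfp598 (-0.0052 to 0.047), all with tumor-derived against parental cells.

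No pairing by replicate number was seen, though this check cannot show that the cultures were unpaired. Deviations of the 12 same-numbered pairs correlated at -0.16 to 0.15, 2 of them over 0.1. In 7 of 24 cases a library correlated best with its own number. With a replicate block 137 totals rose and 30 fell with tumor-derived cells, and 116 and 17 with spleen-derived cells. Members with few reads, and genes sharing sequence with copies, limit the precision.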
